A study of Mus musculus with 1 sample.

Results

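The 9 genes described here, S100a8, S100a9, Ltf, Camp, Ngp, Lcn2, Fcnb, Chil3 and Pglyrp1, encode proteins that neutrophils store in their granules or hold in their cytosol late in maturation. They were chosen by name and are 9 of the 32285 genes of the deposited table, in which each symbol had exactly 1 row. They were measured by single-cell RNA-seq in 1 library from the femora and tibiae of C57BL/6 control mice, whose marrow was sorted as lineage-negative and Kit-positive (Lin- Kit+), a fraction that holds stem cells and early progenitors. The study asks what loss of Brd9, a subunit of a chromatin remodelling complex, does to blood stem cells; the group analysed here carries Brd9fl/fl alleles, which are intact because no Cre is present, and the deleted cells are not analysed here. The animals had received 3 doses of 20 mg/kg polyinosinic-polycytidylic acid (pIpC), an inducer of interferon, given every other day, and cells were prepared 8 weeks later. The sample labels speak of CD45.2(+) donor cells in CD45.1(+) recipients given pIpC 4 weeks after a transplant, while the series text speaks of primary mice treated 4 weeks after birth, and which applies was not settled. The number of animals behind the library was not given in the sources used here.

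Neutrophils fill their granules in waves. Primary (azurophil) granules are made first, in promyelocytes, and hold myeloperoxidase and the serine proteases; secondary (specific) granules follow in myelocytes and hold lactoferrin, cathelicidin and lipocalin 2; gelatinase granules come last. The factor C/EBPε, encoded by Cebpe, is needed for the secondary granule proteins and marks the cells in which they are expected. S100A8 and S100A9 are calcium-binding proteins that pair as calprotectin, which sequesters zinc and manganese and is very abundant in the neutrophil cytosol.

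Each captured transcript carries a random tag, the unique molecular identifier (UMI), and the number of different tags is the count. The authors' cell filter kept 7645 of 8817 barcodes, with a median of 18696 UMIs per cell. Cells were split by Cebpe: 811 cells held 3 or more raw Cebpe UMIs and are called Cebpe-positive (median 21524 UMIs), 713 held 1 or 2, and 6121 held none and are called Cebpe-0. The level of a gene in a class is its UMIs for each 1000000 UMIs of all genes there (CPM). The kit reads the 3′ ends of transcripts, so levels were not divided by transcript length. With 1 library there are no replicates, so no test was run, and every interval is an exact 95% interval (Poisson for levels, Clopper-Pearson for shares, conditional binomial for folds) that covers counting error only. As a background for free RNA, 1142 Cebpe-0 cells with 3 or more UMIs of the erythroid factor Klf1 were used, which should lack these transcripts and were deeper than the Cebpe-positive cells (median 33466 UMIs). Kit was detected in 5031 of the 7645 cells (65.8%), and Brd9 in 3198 (41.8%).

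The label of the Cebpe-positive cells was checked against clusters that were made without the 9 genes, Cebpe and the gene lists used below. Of the 811 cells, 601 (74.1%) lay in neutrophil lineage-like clusters, 85 (10.5%) in monocyte-like clusters, 41 (5.06%) in an eosinophil-like cluster and 77 (9.49%) in clusters without a name. Doublet calls were 29 of the 811 (3.58%), against 265 of all cells (3.47%).

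The genes lie on 4 chromosomes of GRCm38, by the GENCODE M21 annotation, and no other annotated gene overlaps any of them on either strand. S100a8 (chr3:90668978-90670035, plus strand) and S100a9 (chr3:90692632-90695721, minus strand) are neighbours, 22596 bases apart. Chil3 is on the same chromosome (chr3:106147554-106167564, minus strand). Camp (chr9:109847379-109849617, minus strand), Ngp (chr9:110419747-110423012, plus strand) and Ltf (chr9:111019271-111042767, plus strand) share chromosome 9. Fcnb (chr2:28076378-28084885, minus strand) and Lcn2 (chr2:32384633-32388252, minus strand) are on chromosome 2, and Pglyrp1 is on chromosome 7 (chr7:18871331-18890459, plus strand).

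Promoters are shown because C/EBP factors bind the motif TTNNGCAA (reverse complement TTGCNNAA) and the genes were split here by the level of Cebpe. RefSeq promoter sequences (GRCm38.p6, 250 bases before to 50 after the start) were found for all 9 genes. The motif, on either strand, was in 5 of the 9 (S100a9, Ltf, Ngp, Lcn2 and Fcnb), and in 3547 of 32851 promoters of all genes (10.8%). The motif GAGGAA (reverse complement TTCCTC) of the myeloid factor PU.1 was in 4 of the 9 (S100a8, Ltf, Lcn2 and Pglyrp1), and in 28.3% of all promoters. Neither motif was in these windows of Camp and Chil3. A match of letters says nothing of binding. The 250 bases before the start are printed for 3 genes with a C/EBP match that behaved differently below, S100a9 and Fcnb, which were detected, and Ltf, which was not. They run 5′ to 3′ along the gene's strand, with the C/EBP match in capitals.
S100a9, chr3:90695722-90695971, minus strand: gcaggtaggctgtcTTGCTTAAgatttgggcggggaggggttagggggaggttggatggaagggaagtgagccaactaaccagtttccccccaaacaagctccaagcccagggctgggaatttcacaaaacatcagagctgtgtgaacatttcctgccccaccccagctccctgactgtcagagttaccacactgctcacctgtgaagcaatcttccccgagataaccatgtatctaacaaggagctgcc
Fcnb, chr2:28084879-28085128, minus strand: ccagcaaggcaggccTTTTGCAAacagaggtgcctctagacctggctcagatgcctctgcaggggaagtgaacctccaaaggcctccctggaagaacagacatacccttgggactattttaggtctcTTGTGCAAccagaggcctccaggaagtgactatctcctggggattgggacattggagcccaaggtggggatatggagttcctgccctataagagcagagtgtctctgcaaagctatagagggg
Ltf, chr9:111019042-111019291, plus strand: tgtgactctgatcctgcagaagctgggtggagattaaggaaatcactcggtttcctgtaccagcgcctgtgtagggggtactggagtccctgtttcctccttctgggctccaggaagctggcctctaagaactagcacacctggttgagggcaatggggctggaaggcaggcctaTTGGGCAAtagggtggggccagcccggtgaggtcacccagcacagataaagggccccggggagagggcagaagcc
The match of S100a9 (TTGCTTAA) began 236 bases before the start. Those of Fcnb began 235 bases (TTTTGCAA) and 123 bases (TTGTGCAA) before it, and that of Ltf (TTGGGCAA) 75 bases before it. Ngp held the motif at 138 bases (TTGCCCAA) and at 11 bases (TTGGGCAA), and Lcn2 at 216 bases (TTGCTCAA).

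S100a8 and S100a9 differed most between the classes. The library held 22943 S100a8 UMIs, of which 18287 (79.7%) lay in the 811 Cebpe-positive cells. S100a8 stood at 998 CPM (interval 983 to 1012) in Cebpe-positive cells, 243 CPM in cells with 1 or 2 Cebpe UMIs and 6.57 CPM (6.12 to 7.06) in Cebpe-0 cells, which made Cebpe-positive cells 152-fold higher than Cebpe-0 cells (141 to 163). S100a9 stood at 182 CPM (176 to 188), 24.0 CPM and 1.05 CPM in the same classes, a difference of 174-fold (145 to 210.1). In the Klf1-positive background cells both were close to absent, at 2.01 CPM for S100a8 and 0.294 CPM for S100a9.

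Within the Cebpe-positive cells the pair was unevenly spread. The median cell had 111 CPM of S100a8, the upper quartile 934 CPM and the highest cell 19591 CPM. Of all S100a8 UMIs of the library 13.3% lay in the 10 cells that had the most, and of all S100a9 UMIs 34.0% lay in the 10 cells that had the most. S100a8 had at least 1 UMI in 533 of the 811 cells and 100 or more in 53, with up to 370 in 1 cell. S100a9 had at least 1 UMI in 217 cells and up to 169 in 1 cell, so that its median cell had none.

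Pglyrp1 encodes peptidoglycan recognition protein 1, a bactericidal granule protein that binds bacterial cell walls. It was the member found in most Cebpe-positive cells, with a UMI in 762 of the 811 (94.0%), and in these cells its level was spread far less widely than that of S100a8, with a median cell of 299 CPM, an upper quartile of 489 CPM and a highest cell of 2396 CPM. It stood at 334 CPM (326 to 343) in Cebpe-positive cells, 105 CPM in cells with 1 or 2 Cebpe UMIs and 19.5 CPM (18.7 to 20.3) in Cebpe-0 cells, a difference of 17.1-fold (16.3 to 18.0) between the first and the last. Only 60.6% of its 10100 UMIs lay in Cebpe-positive cells, and 22.7% lay in Cebpe-0 cells.

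The secondary granule proteins were low. Lcn2 encodes lipocalin 2, which binds bacterial siderophores and so withholds iron. It stood at 38.0 CPM (35.3 to 41.0) in Cebpe-positive, 27.5 CPM in Cebpe 1 to 2 and 7.85 CPM (7.35 to 8.37) in Cebpe-0 cells. At 4.84-fold (4.38 to 5.35) its difference was the smallest but one of the 8 members with a fold, and 44.8% of its 2059 UMIs lay in Cebpe-0 cells. It was spread thinly over 387 Cebpe-positive cells, none of which had more than 8 UMIs.

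Camp encodes the cathelicidin precursor, from which an antimicrobial peptide is cut. It had 125 UMIs in the library, 105 of them in Cebpe-positive cells, where it stood at 5.73 CPM (4.69 to 6.93), against 0.136 CPM (0.0778 to 0.221) in Cebpe-0 cells, a difference of 42.1-fold (24.7 to 76.3). These 105 UMIs lay in 45 cells, and the 2 highest cells held 19 and 15. All 8 cells with 3 or more Camp UMIs lay in neutrophil lineage-like clusters and held between 78 and 318 S100a8 UMIs. Ngp, which encodes the neutrophilic granule protein, had 31 UMIs in 30 cells, of which 23 UMIs in 22 cells were in the Cebpe-positive class. Its level there was 1.25 CPM (0.795 to 1.88), 21.1-fold (8.75 to 58.2) that of Cebpe-0 cells, at 7 UMIs in the latter.

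Ltf, which encodes the iron-binding protein lactoferrin, had 3 UMIs in the whole library, each in a different cell. None of these 3 cells was Cebpe-positive, neutrophil lineage-like or had an S100a8 UMI. In the 811 Cebpe-positive cells Ltf was at 0, which at 3 UMIs as the limit of a count of 0 allows a level of up to 0.164 CPM. Expression of Ltf was therefore not detectable at this depth in the cells that expressed the other members. Cells outside the Lin- Kit+ sort were not measured.

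Fcnb encodes ficolin B, a lectin of myeloid cells that binds sugars on microbes. It stood at 32.2 CPM (29.6 to 34.9) in Cebpe-positive, 12.6 CPM in Cebpe 1 to 2 and 1.68 CPM (1.45 to 1.93) in Cebpe-0 cells, a difference of 19.2-fold (16.3 to 22.7). Chil3 encodes a chitinase-like lectin without chitinase activity, which is also a product of macrophages and monocytes. Unlike the other members, it was highest in the cells with 1 or 2 Cebpe UMIs, at 7.21 CPM (5.95 to 8.65), against 3.49 CPM (2.69 to 4.46) in Cebpe-positive and 1.74 CPM (1.51 to 2.0) in Cebpe-0 cells. Its fold over Cebpe-0 cells was 2.0 (1.49 to 2.66). Chil3 was also concentrated in few cells: the 10 highest held 42.4% of its 384 UMIs, and of the 8 cells with 10 or more UMIs 7 were monocyte-like and none neutrophil lineage-like. Its close relative Chil4 had no UMI in the library and Chil1 had 11. Fcna, the relative of Fcnb, had 29 UMIs, none of them in Cebpe-positive cells.

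A difference of 2-fold or more was used as a rule of size in place of a test. Among 13367 genes with 50 or more UMIs in Cebpe-positive and Cebpe-0 cells together, 2.92% were at least 2-fold higher in Cebpe-positive cells, and the median gene had a fold of 0.737. Of the 9 members 7 reached 50 UMIs, and all 7 were at least 2-fold higher, with a median fold of 19.2; Camp reached 50 UMIs only through its level in Cebpe-positive cells. Ngp was past 2-fold but under 50 UMIs, and Ltf could not be compared. In the 601 neutrophil lineage-like cells alone levels were higher, at 1326 CPM for S100a8, 240.0 CPM for S100a9, 412 CPM for Pglyrp1, 41.8 CPM for Fcnb, 42.3 CPM for Lcn2 and 7.94 CPM for Camp, and the same number of members, 7, was past 2-fold. Chil3 rested on the edge of the rule and fell below it, at 1.67-fold, when 2 Cebpe UMIs were enough.

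The share of cells with each member was first read from single cells, with each cell thinned at random to 5000 UMIs so that depth could not set the count. This share depends on the level of a gene as well as on its onset. Of the 811 Cebpe-positive cells 806 were deep enough. A member was called on in a cell at 3 or more UMIs, a count above the 99th percentile of the background cells for every member. By this rule S100a8 was on in 275 cells (34.1%, interval 30.8 to 37.5), Pglyrp1 in 221 (27.4%, 24.4 to 30.6) and S100a9 in 62 (7.69%, 5.95 to 9.75). Fcnb was on in 10 cells (1.24%), Lcn2 in 4 (0.496%) and Camp in 2 (0.248%). Ltf, Ngp and Chil3 were on in none, which leaves shares up to 0.457% by the interval. None of the background cells was on for any member, and 365 of the 806 Cebpe-positive cells (45.3%) were on for at least 1. In neutrophil lineage-like cells alone S100a8 was on in 42.9%, Pglyrp1 in 34.8% and S100a9 in 9.98%.

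With 1 thinned UMI as the threshold the order of the leading pair turned around. Pglyrp1 then came first, in 71.0% of cells (67.7 to 74.1), ahead of S100a8 in 50.9% (47.4 to 54.4), while the background cells were at 1.05% for Pglyrp1 and 0.526% for S100a8. S100a9 was detected in 16%, Lcn2 in 14.9% and Fcnb in 12.3% of cells by this rule, shares whose intervals overlap. Camp (2.11%), Chil3 (0.993%), Ngp (0.496%) and Ltf (0%) followed. Pglyrp1 was thus present in more cells and S100a8 in larger amounts.

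**Figure D1:**
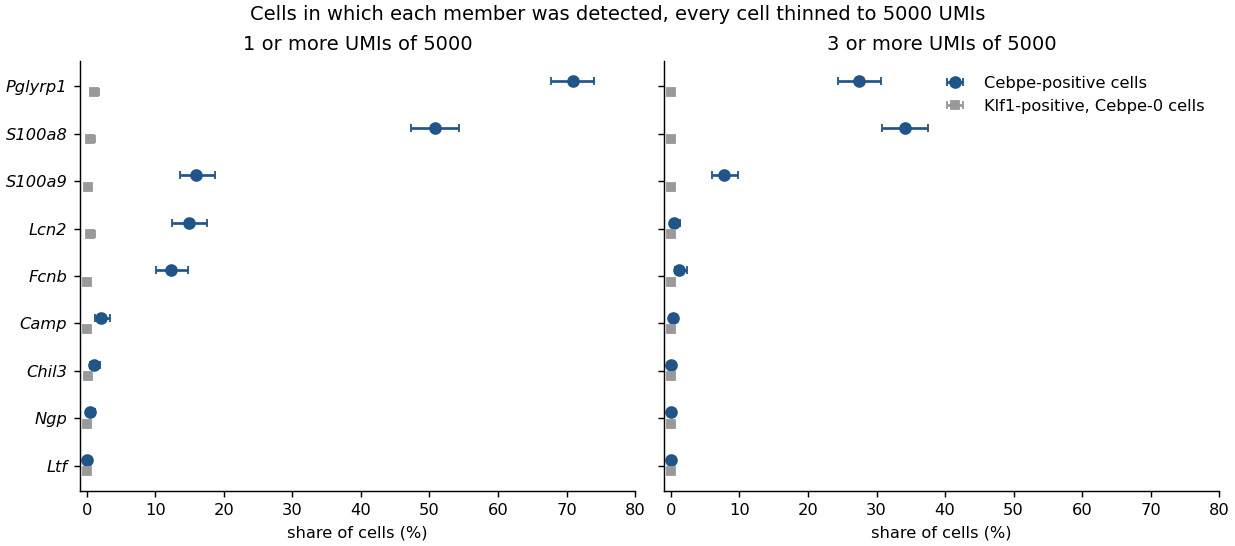
Share of cells (x axis, percent) in which each member (y axis) was detected at 1 or more (left) or 3 or more (right) UMIs after thinning every cell to 5000 UMIs, with exact 95% intervals of counting error. Blue points are the 806 Cebpe-positive cells and grey squares the Klf1-positive background cells; Pglyrp1 leads on the left at 71.0% and S100a8 on the right at 34.1%.

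Pairs of members were then set against each other in the same cells. A member that is on in more cells is always found without its partner more often than the reverse. The direction of each pair therefore restates the shares above, which also depend on the level of a gene, and adds nothing about onset. By the threshold of 3 thinned UMIs, 13 of the 15 pairs among the 6 members that were on in any cell had an interval off 50%. Over all 36 pairs the count was 25, which includes pairs with a member on in no cell. S100a8 was on without S100a9 in 213 cells and S100a9 without S100a8 in none, with both on in 62. Pglyrp1 was on without S100a9 in 183 cells, and the reverse held in 24. S100a8 was on without Pglyrp1 in 142 cells and Pglyrp1 without S100a8 in 88 (61.7% for S100a8, 55.1 to 68.0). With another random thinning at the same threshold this share was 56.2% (49.6 to 62.7), an interval that includes 50%. At 1 thinned UMI the share was 23.2% (18.5 to 28.4), so this pair had no order that both thresholds gave. At 1 thinned UMI 24 of the 28 pairs among the 8 members on in any cell had an interval off 50%.

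Without thinning, the detection of Pglyrp1, S100a8, S100a9 and Camp was nested. Of the Klf1-positive background cells, 4.99% held a raw UMI of Pglyrp1, 5.95% of S100a8, 0.963% of S100a9 and 0.0876% of Camp. Of the 811 cells 231 (28.5%) held UMIs of Pglyrp1 alone of these 4, 307 (37.9%) of Pglyrp1 and S100a8, 173 (21.3%) of these and S100a9, 38 (4.69%) of all 4 and 41 (5.06%) of none. Together these patterns took in 790 cells (97.4%, 96.1 to 98.4), and only 8 cells held S100a8 alone. Of the 217 cells with S100a9 all held Pglyrp1 and 211 held S100a8 (97.2%), while of the 533 cells with S100a8 39.6% held S100a9. All 45 cells with Camp held S100a8 and Pglyrp1, and 38 of them (84.4%) held S100a9. Cells with all 4 had a median of 17261 UMIs and cells with Pglyrp1 alone 22598, so the fuller pattern was found in shallower cells. A nested pattern also follows where levels differ, so it was read beside an ordering of the cells made without the members. That ordering was built from genes that vary with the members, such as Wfdc21, so it is a description and no independent check.

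Fcnb was found more often in cells with S100a9. It had a UMI in 136 of the 217 cells with S100a9 (62.7%, 55.9 to 69.1) and in 79 of the 594 without (13.3%). Lcn2 did not follow this pattern, with a UMI in 46.5% of the cells with S100a9 (39.8 to 53.4) and 48.1% of those without.

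To order the cells, component 1 of a principal component analysis of the 811 Cebpe-positive cells was used, computed without the members, Cebpe, the gene lists and mitochondrial genes, and turned so that Kit falls along it. It held 4.93% of the variance. Cells were divided into 10 bins of 81 or 82 cells. Cd34, a surface marker of early progenitors, fell along the axis from 219 to 2.23 CPM, and Kit from 118 to 38.0 CPM. The axis went partly with depth (Spearman's rho of -0.33 over cells), and bins 9 and 10 had the fewest UMIs per cell (medians 19147 and 16988, against 26120 in bin 2). Bin 1 held 33 eosinophil-like cells and 1 neutrophil lineage-like cell, and 9.76% of its cells were doublet calls; from bin 7 on, at least 80 of the 81 cells were neutrophil lineage-like and none was a doublet call. The part of other cell types in the first bins was not tested, and the order was therefore also taken within the neutrophil lineage-like cells alone.

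Pglyrp1 rose steadily up to bin 9. Its level was 109, 159, 210, 238, 312, 329, 426, 508, 622 and 606 CPM from bin 1 to bin 10, and it reached 50% of its highest level in bin 5. It had a UMI in 61 of the 82 cells of bin 1 and in all 81 cells of bins 8, 9 and 10. Lcn2 reached its level early and stayed there, with 9.41 CPM (5.38 to 15.3) in bin 1, 25.9 in bin 2, 45.5 in bin 3 and between 34.5 and 54.5 CPM after that, with intervals that all overlapped that of bin 3. It passed 50% of its highest level in bin 3, the first of the members to do so.

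S100a8 rose late and steeply. It stood at 39.4, 48.2, 201, 216, 161 and 311 CPM in bins 1 to 6, and at 918, 1480.0, 3379 and 5049 CPM in bins 7 to 10, 128-fold (101 to 166) higher in the last bin than in the first. Since 1 of the 82 cells of the first bin was neutrophil lineage-like, that fold also compares cell types. S100a8 reached 10% of its highest level in bin 7 and 50% in bin 9. The median cell of bins 1 to 4 had none, that of bin 7 had 424 CPM, that of bin 9 2322 CPM and that of bin 10 4136 CPM. Single cells already had much of it earlier, with 20.1% of the UMIs of bin 3 and 38.6% of those of bin 5 in 1 cell each, and the highest cell of bin 3 at 4988 CPM. The share of cells with a UMI rose from 12.2% in bin 1 to 43.2% in bin 3, 82.7% in bin 6 and 100% in bins 9 and 10. Median depth rose from bin 1 to bin 2 and fell from there to bin 10.

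S100a9 followed S100a8. Its levels were 1.18, 5.0, 68.9, 11.8, 15.9 and 30.2 CPM in bins 1 to 6 and 158, 129, 725 and 1043 CPM in bins 7 to 10, with 50% of the highest level also first reached in bin 9. Bins 3, 4, 6 and 7 rested on 1 cell each to a large degree: without the cell with the most S100a9 UMIs their levels were 43.1, 5.47, 4.87 and 79.5 CPM. Even in the last bins not every cell had a UMI, with 54 of 81 in bin 9 and 63 of 81 in bin 10.

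Fcnb and Camp rose with the pair. Fcnb stood between 1.18 and 11 CPM in bins 1 to 6 and at 29.8, 53.2, 118 and 139 CPM in bins 7 to 10, and Camp between 0 and 0.531 CPM in bins 1 to 6 and at 3.31, 4.14, 27.5 and 35.0 CPM after that. Both passed 50% of the highest level in bin 9. Camp had UMIs in 17 of the 81 cells of each of the last 2 bins, and the highest cell held 43.2% of its UMIs in bin 9. Ngp had at most 1 UMI in each of bins 1 to 6 and between 4 and 7 in each later bin, at most 4.38 CPM. Chil3 ranged between 0 and 10.6 CPM, with no UMI in bins 1, 2, 4 and 8. The bins in which these 2 genes passed 50%, bin 7 for Ngp and bin 6 for Chil3, therefore rest on few UMIs. Ltf was at 0 in every bin.

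**Figure D2:**
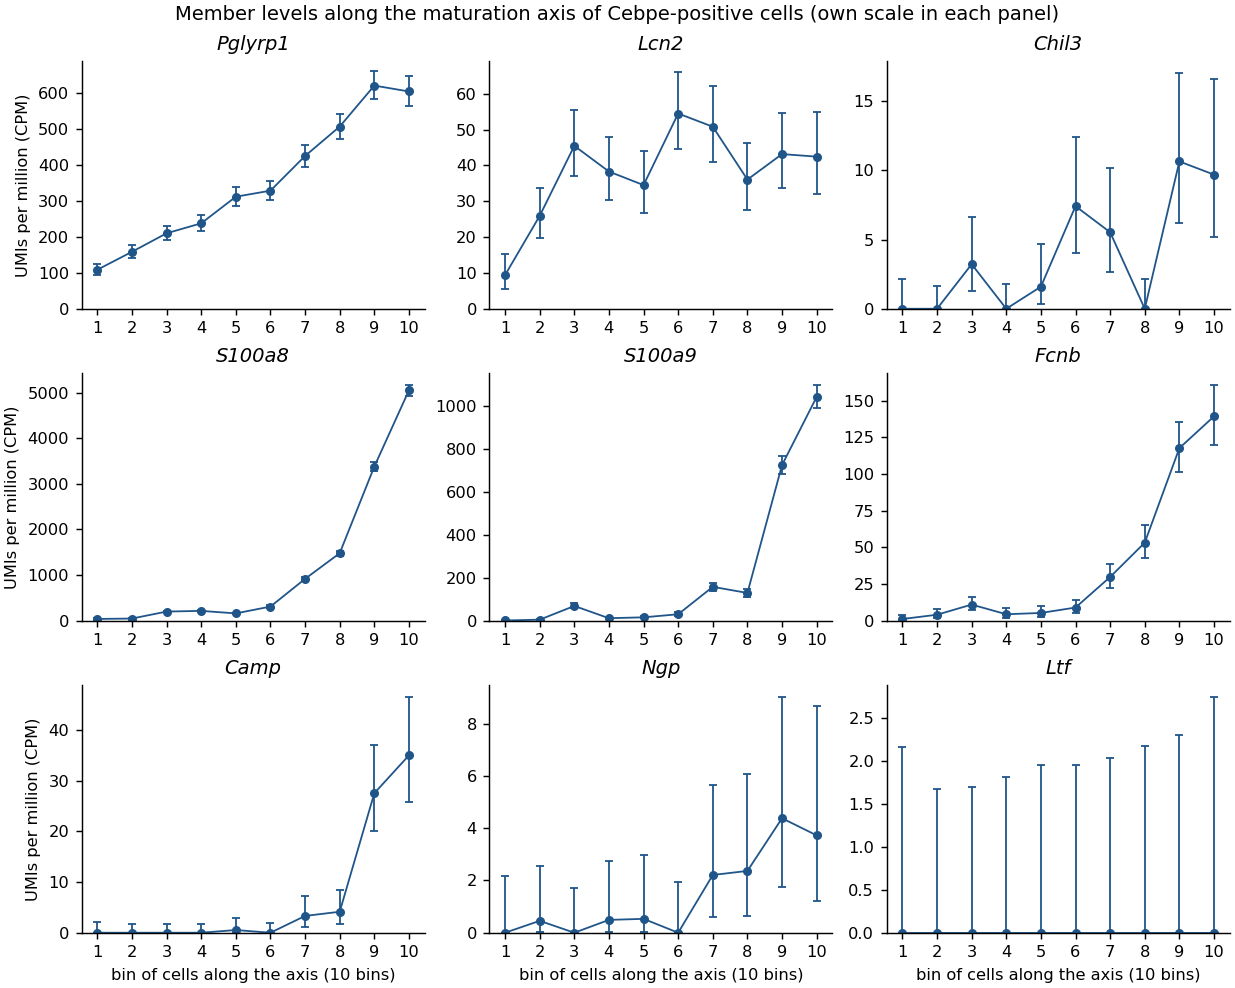
Level of each member (y axis, CPM, own scale in each panel) in 10 bins of 81 or 82 Cebpe-positive cells along the maturation axis (x axis), with exact Poisson 95% intervals. Lcn2 levels off from bin 3 and Pglyrp1 climbs up to bin 9, while S100a8, S100a9, Fcnb and Camp stay low up to bin 6 and are highest in bin 10.

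Between the last and the first bin, 2.73% of 5907 genes with 50 or more UMIs in these 2 bins were at least 2-fold higher and 22.5% at least 2-fold lower, with a median fold of 0.770. All 5 members that reached 50 UMIs (S100a8, S100a9, Lcn2, Fcnb and Pglyrp1) were at least 2-fold higher. S100a8 and Pglyrp1 had 67 and 185 UMIs in the first bin and were 128-fold and 5.57-fold higher. S100a9, Lcn2 and Fcnb reached 50 UMIs only through the last bin, with 2, 16 and 2 UMIs in the first, so their calls are no support. The first bin held 1 neutrophil lineage-like cell, so all these folds also compare cell types. S100a8 came to 50% of its highest level 4 bins after Pglyrp1, which is 40% of the cells, and between 30% and 50% of the cells after it under 8 of 9 other settings. Under the ninth, in which cells were ordered by a falling share of 4 primary granule transcripts, both passed 50% in the first bin. Those 4 were each highest in bin 10 of the main axis, so the ninth order starts with cells high in them and cannot check the gap. Within the 601 neutrophil lineage-like cells alone, Lcn2 passed 50% in bin 1, Pglyrp1 in bin 4, Ngp in bin 8, S100a8, Fcnb and Chil3 in bin 9 and S100a9 and Camp in bin 10.

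Other neutrophil genes were followed along the same axis, and their folds over the first bin also compare cell types. Of 8 primary granule genes 6 were at least 2-fold higher in the last bin, 1 at least 2-fold lower and 1 neither, with a median fold of 3.41. Elane, which encodes neutrophil elastase, went from 2694 to 22565 CPM (8.37-fold), Prtn3 (proteinase 3) from 2271 to 17823 CPM (7.85-fold) and Mpo (myeloperoxidase) from 5003 to 7866 CPM (1.57-fold). Ctsc, which encodes the protease that activates the granule serine proteases, went from 37.0 to 15.6 CPM (0.422-fold). Elane and S100a8 were both highest in bin 10. Within the neutrophil lineage-like cells alone, Elane was 3.25-fold higher in the last bin and 5 of the 8 genes passed 2-fold.

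Of 12 gelatinase and secretory granule genes 5 reached 50 UMIs, and 3 of these were at least 2-fold higher: Hp (haptoglobin), at 11.7-fold, Cybb, at 3.47-fold, and Ltb4r1, at 2.59-fold. Others of this list were close to absent, with 0 UMIs of Mmp9 (gelatinase B) and Ceacam10, 3 of Mmp8, 1 of Retnlg and 1 of Olfm4 in all 811 cells. Mmp8, the neutrophil collagenase, and Olfm4 are products of specific granules. Of 11 regulators and receptors 10 could be compared, of which Kit, at 0.321-fold, was used to turn the axis and its direction is no result. Cebpb (3.72-fold), Cebpd (3.25-fold) and Gfi1 (2.71-fold) were higher and Runx1 (0.197-fold) and Cd34 (0.0102-fold, 0.00209 to 0.0300, with 3 UMIs in the last bin) lower, and Csf3r, the receptor of the growth factor G-CSF, was within 2-fold at 1.32-fold. Of 8 cell cycle genes none was higher and 3 were at least 2-fold lower in the last bin, Mki67 (0.169-fold), Top2a (0.236-fold) and Ccnb1 (0.432-fold), and 2 were within the neutrophil lineage-like cells alone. Among all 5907 genes compared on the main axis 22.5% were at least 2-fold lower, so these counts are no result about the cell cycle.

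S100a8 and S100a9 did not rise in step. Over all Cebpe-positive cells there were 5.48 S100a8 UMIs for each S100a9 UMI (5.28 to 5.69). Cells with 10 to 99 S100a8 UMIs had 10.2 (9.49 to 11), the 53 cells with 100 or more had 3.67 (3.51 to 3.83) and the 12 cells with 200 or more had 2.80 (2.62 to 2.99). Along the axis the ratio was 10.1 in bin 5, 10.3 in bin 6, 5.81 in bin 7, 11.4 in bin 8, 4.66 (4.37 to 4.97) in bin 9 and 4.84 (4.57 to 5.13) in bin 10. Single cells weighed on the earlier bins. Without the cell with the most S100a9 the ratio was 8.86 in bin 5, 46.1 in bin 6, 9.70 in bin 7 and 14.4 in bin 8, against 5.11 and 5.25 in bins 9 and 10. A cell picked for its S100a9 weighs most where S100a9 UMIs are few, so these values are a description. Bin 3 went against this, with a ratio of 2.92 (2.42 to 3.54), or 3.76 without its highest S100a9 cell. The classes of cells above were split by S100a8 itself, so their ratios are a description.

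**Figure D3:**
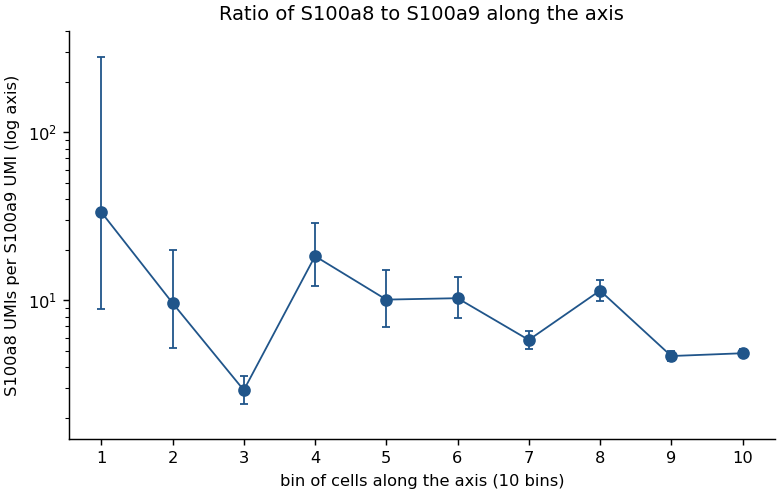
S100a8 UMIs for each S100a9 UMI (y axis, log scale) in the 10 bins of Cebpe-positive cells along the axis (x axis), with exact 95% intervals of counting error. The ratio scatters between 2.92 and 33.5 up to bin 8 and is 4.66 and 4.84 in the last 2 bins.

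Outside the neutrophil lineage the members parted ways. Levels were taken in the Cebpe-0 cells of each class of clusters. Pglyrp1 was high in 406 basophil or mast-like cells, which were led by Prss34 and Mcpt8, at 179 CPM (168 to 191), 94.4-fold (74.1 to 122) the background cells, and with a UMI in 47.1% of these cells after thinning against 1.05% of background cells. The class was shallower than the background cells (medians 12096 and 33466 UMIs), which raises the CPM that the same number of free UMIs makes. Lcn2 stood at 55.9 CPM (49.8 to 62.5) there, above its 38.0 CPM in Cebpe-positive cells. S100a8 was at 2.38 CPM (1.27 to 4.07) and Fcnb at 0 in the same cells, so that Pglyrp1 and Lcn2 made up nearly all member UMIs of these cells. Without doublet calls Pglyrp1 was at 188 CPM in this class.

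The 256 dendritic-like cells had Pglyrp1 alone, at 44.5 CPM (37.4 to 52.4), with 1 UMI of Lcn2 and 6 of S100a8 in all of them. In the 904 stem cell (HSC)-like cells, Pglyrp1 was at 17.0 CPM (14.4 to 19.9), 8.94-fold the background cells, and made up 70.6% of member UMIs. S100a9 was 5.62-fold and S100a8 2.03-fold the background cells there. These cells were shallower (median 8811 UMIs, against 33466 in the background cells), so the same number of free UMIs makes a higher CPM in them. The part of free RNA was not tested. In the 500 megakaryocyte-like cells Pglyrp1 was at 2.93 CPM and S100a8 at 3.27 CPM. S100a9 was at 2.37 CPM there, from 21 UMIs, 8.06-fold (3.71 to 18.5) the background cells. In the 1107 erythroid-like cells Pglyrp1 was at 0.857 and S100a8 at 1.82 CPM. The background cells had 1.90 CPM of Pglyrp1 and 2.01 CPM of S100a8, and many of them are erythroid-like cells.

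Monocyte-like cells had a different set. Over their 1230 Cebpe-0 cells, Lcn2 was at 18.2 CPM (16.7 to 19.9), Pglyrp1 at 15.3 CPM, S100a8 at 9.89 CPM (8.75 to 11.1), Fcnb at 6.50 CPM (5.58 to 7.52) and Chil3 at 6.42 CPM (5.51 to 7.44). Few cells carried part of this, since the 10 highest cells held 57.9% of the Chil3 UMIs and 41.6% of the S100a8 UMIs of the class. In 273 cells of the cluster led by Fn1 and Lyz2, Chil3 was at 22.6 CPM (18.9 to 26.8), Fcnb at 17.9 CPM (14.6 to 21.7) and Lcn2 at 26.3 CPM, while Pglyrp1 was at 7.88 CPM. Chil3 there was above its level in Cebpe-positive cells, at 3.49 CPM, and 1 cell held 21 of its 129 UMIs. Camp and Ngp had no UMI in any of the 1230 cells.

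**Figure D4:**
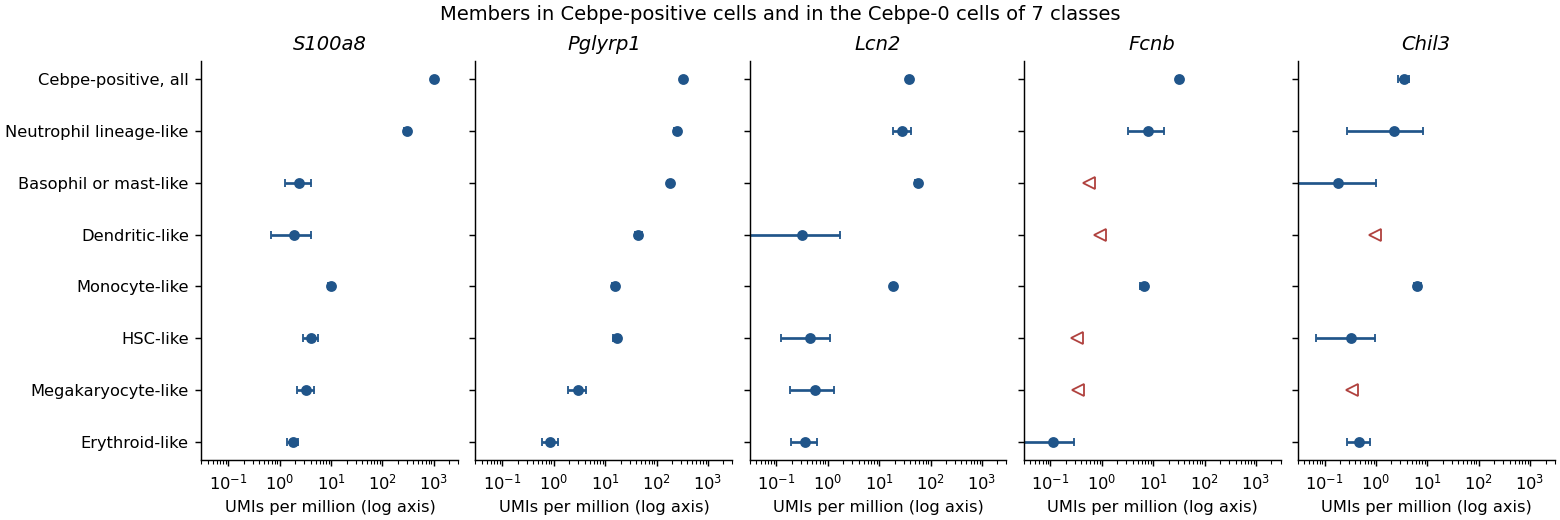
Levels of 5 members (x axis, CPM, log scale) in all Cebpe-positive cells and in the Cebpe-0 cells of 7 classes (y axis), with exact Poisson 95% intervals; open triangles mark counts of 0, drawn at the level that 3 UMIs would give, and bars that reach the left edge run on beyond it. Pglyrp1 and Lcn2 are high in basophil or mast-like cells and Chil3 is highest in monocyte-like cells, while S100a8 stands at 298 CPM in neutrophil lineage-like and at most 9.89 CPM in other named Cebpe-0 classes.

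The make-up of the member UMIs differed between classes. In Cebpe-positive cells S100a8 was 62.6% of the 29228 member UMIs, Pglyrp1 21%, S100a9 11.4%, Lcn2 2.38% and Fcnb 2.02%. In basophil or mast-like Cebpe-0 cells Pglyrp1 was 74.8% and Lcn2 23.3%, with S100a8 at 0.994%, and in monocyte-like Cebpe-0 cells Lcn2 was 31.7%, Pglyrp1 26.6% and S100a8 17.2%. The Klf1-positive background cells had yet another make-up, with S100a8 at 35.0%, Pglyrp1 at 33.2% and Lcn2 at 15.9%. The 41 neutrophil lineage-like cells without a Cebpe UMI had S100a8 at 298 CPM (263 to 337), of which 76.0% of UMIs lay in 10 cells, S100a9 at 17.0 CPM (9.52 to 28.1) and Pglyrp1 at 251 CPM (219 to 286). S100a8 and S100a9 were thus lower there than in Cebpe-positive cells, and Pglyrp1 was a larger part of the member UMIs, at 41.2%. The 41 Cebpe-positive eosinophil-like cells had Pglyrp1 at 183 CPM (152 to 219) and S100a8 at 43.1 CPM (28.7 to 62.3).

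Mature granulocytes are known to have few genes per cell, and the barcodes that the filter removed were examined for the members. In the 574 barcodes with 1000 genes or fewer S100a8 was at 19.0 CPM (10.8 to 30.8), from 16 UMIs, of which no barcode held more than 2, and Pglyrp1 was at 20.1 CPM (11.7 to 32.2). Camp, Ngp, Ltf, Fcnb and Chil3 had no UMI in them. The 23 barcodes that this limit alone removed had 4 UMIs of Pglyrp1 and none of S100a8, in 34970.0 UMIs in all, which allows S100a8 levels up to 85.8 CPM. The 909 barcodes with a mitochondrial share of 7% or more had S100a8 at 46.9 CPM (39.9 to 54.6), where 1 barcode held 119 of the 163 UMIs. All removed barcodes together, 1172 in number, had S100a8 at 46.1 CPM, below the 151 CPM of the cells kept. Among all of them Camp had 1 UMI.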

How the data were processed

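Per the labels and the methods, the authors sorted Lin- Kit+ cells, made 1 library with the 10x Genomics 3′ kit and counted UMIs with Cell Ranger 6.0.2 on mm10; the extraction text of the labels describes another, bulk kit. The deposited table holds raw counts of UMIs per gene and barcode, for barcodes called as cells, with no normalization. The authors' filter was applied, which asks for UMIs between 1000 and 50000, between 1000 and 6500 genes and less than 7% mitochondrial UMIs. This left 7645 of 8817 barcodes, with 1592 to 49991 UMIs each. Doublets were called with Scrublet (scanpy 1.11.5, expected rate 6%) and kept, and an alternative removed them. Clusters were made in Seurat 5.3.0 with sctransform 0.4.2 (R 4.3.3), leaving out the members, Cebpe, the gene lists and mitochondrial genes, and were called "-like" from marker lists only, where at least 3 markers were raised and the leading genes did not go against the name. Levels are summed UMIs scaled to 1000000; intervals came from scipy 1.17.1 (Python 3.11.15). Cells were thinned without replacement to 5000 UMIs, and 99 cells were too shallow. Named genes were all members, Cebpe, the fixed lists and the 5 genes most like the members over clusters. The members and lists were chosen with earlier results of these data known. Scripts were tested on simulated data. Alternatives changed the Cebpe threshold, cell filter, doublets, thinning, threshold of detection, axis, bins and clustering; 2 more, neutrophil lineage-like cells only and 3 raw UMIs, were chosen after seeing the data.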

Additional observations from a re-analysis of the deposited data

How the results depend on the processing

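No paired analysis was possible because there is 1 library, and no replicate could be left out. The summed level of the 9 members in Cebpe-positive cells, 1595 CPM, was 1416 CPM with a Cebpe threshold of 2 UMIs, 1784 CPM with 5, 1626 CPM without doublet calls and 2075.5 CPM in neutrophil lineage-like cells only. The share of cells on for at least 1 member, 45.3%, was 40.6% with the Cebpe threshold of 2, 56.2% in neutrophil lineage-like cells, 28.0% after thinning to 2500 UMIs, 82.8% at 1 thinned UMI and 82.9% at 3 raw UMIs. The share of S100a8 among cells on for only S100a8 or only Pglyrp1, 61.7%, turned to 23.2% at 1 thinned UMI and 7.5% at 3 raw UMIs, and was 87.1% after thinning to 2500 UMIs. It was 56.2% (49.6 to 62.7) with another random thinning and 56.2% (47.7 to 64.4) with the Cebpe threshold of 5. Both of these intervals include 50%. The gap from Pglyrp1 to S100a8 along the axis, 40% of the cells, was 0 on the axis of falling primary granule share. The transcripts of that axis, Mpo, Elane, Prtn3 and Ctsg, were each highest in bin 10 of the main axis. An order by their fall starts with the cells high in them, so it cannot check the gap. The cause of the difference was not tested. S100a8 in barcodes with 1000 genes or fewer, 19.0 CPM, was 0 in those removed by that limit alone, which hold few UMIs. The count of members past 2-fold was 6 with the Cebpe threshold of 2 and under the stricter cell filter, and 8 with 10 UMIs as the minimum. Over these alternatives S100a8 stayed between 136- and 202-fold over Cebpe-0 cells, S100a9 between 148 and 229, Pglyrp1 between 15.2 and 21.1 and Chil3 between 1.67 and 2.53. Of the main results 37 values under alternatives moved by less than counting error or 1.5 times and 11 by more. At a clustering resolution of 0.4 the neutrophil cluster could not be named. Depth limits Ltf, Ngp and Camp. So does the sort, since the lineage stain of the paper included Gr-1 and CD11b, with which it marks neutrophils. Cells bearing these were removed, and the order of the members beyond the Lin- Kit+ stage was not measured. With 1 library there is no measure of the spread between animals.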

Other observations

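Within the neutrophil lineage-like clusters, the members could be set against the number of Cebpe UMIs in the cell. S100a8 stood at 298 CPM in 41 cells with none, 1019 CPM in 144 cells with 1 or 2, 1151 CPM in 216 cells with 3 or 4, 1427 CPM in 331 cells with 5 to 9 and 1378 CPM in 54 cells with 10 or more. S100a9 went from 17.0 to 108, 178, 269 and 291 CPM over the same classes, and Pglyrp1 from 251 to 335, 364, 441 and 418 CPM. The share of cells with an S100a8 UMI did not follow its level, at 78.0%, 79.2%, 77.8%, 76.7% and 66.7%. Cebpe UMIs of a cell also depend on its depth, and median depth ranged between 20783 and 24190.0 UMIs over these classes.

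Over the 19 clusters, the genes whose level was most like the mean of the members were G0s2 (Pearson's r of 0.94), Wfdc21 (0.94), Cldn15 (0.92), Rflnb (0.91) and Lamtor2 (0.91), of 8874 genes compared. These values are a description over clusters of 1 library, which share its depth and free RNA.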
